A study of Mus musculus with 27 samples.

Results

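The Schlafen family of the mouse is a set of related genes that lie together on chromosome 11. The 7 members described here, Slfn1, Slfn2, Slfn3, Slfn4, Slfn5, Slfn8 and Slfn9, were taken by symbol from a table of 45070 genes, with earlier results of these data known. Other rows named Slfn are described apart, and 6 of the 7 members passed the filter on low values and were tested. The table holds chromatin-associated RNA, which is enriched for transcripts that are still being made, from bone marrow-derived macrophages (BMDMs), primary cells grown from the marrow of wild-type male C57/BL6 mice of 6 to 8 weeks. All cells, the untreated ones included, first received DMSO for 1 h and were then left untreated or were given one of 2 stimuli at 10 ng/ml, namely lipopolysaccharide (LPS, a component of the bacterial wall sensed by TLR4) or the cytokine IL-4 (interleukin-4). Samples were taken after 0.5, 1, 2 or 4 h of either stimulus. Each of the 9 groups had 3 replicates, 27 samples in all, and whether these were separate cultures or animals was not given in the sources used here, so the p-values measure the spread between these samples, which may be technical.

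Schlafen proteins share an N-terminal core region and are sorted by length. The short members Slfn1 and Slfn2 and the intermediate members Slfn3 and Slfn4 lack the C-terminal helicase-like region carried by the long members Slfn5, Slfn8 and Slfn9. The family was first described in thymocytes, where some members were tied to growth arrest, and many members are known as genes induced by type I interferon, the cytokine that LPS-treated macrophages release and to which they respond through the receptor IFNAR, the kinases JAK1 and TYK2 and the factor ISGF3, which includes STAT2 and IRF9. ISGF3 binds a DNA element called ISRE, whereas IL-4 acts mainly through STAT6.

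In the table (GRCm38, positions counted from 1) the members spanned chr11:82952102-83215154, or 263.1 kb. Slfn5 (chr11:82952102-82964850), Slfn2 (chr11:83065112-83070678), Slfn1 (chr11:83116820-83122670), Slfn4 (chr11:83175186-83190216) and Slfn3 (chr11:83191330-83215154) lay on the plus strand, and Slfn9 (chr11:82980303-82991830) and Slfn8 (chr11:83002158-83020810) on the minus strand. Slfn10-ps, whose symbol marks a pseudogene although its row is typed as protein-coding, lay between Slfn8 and Slfn2.

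**Figure D1:**
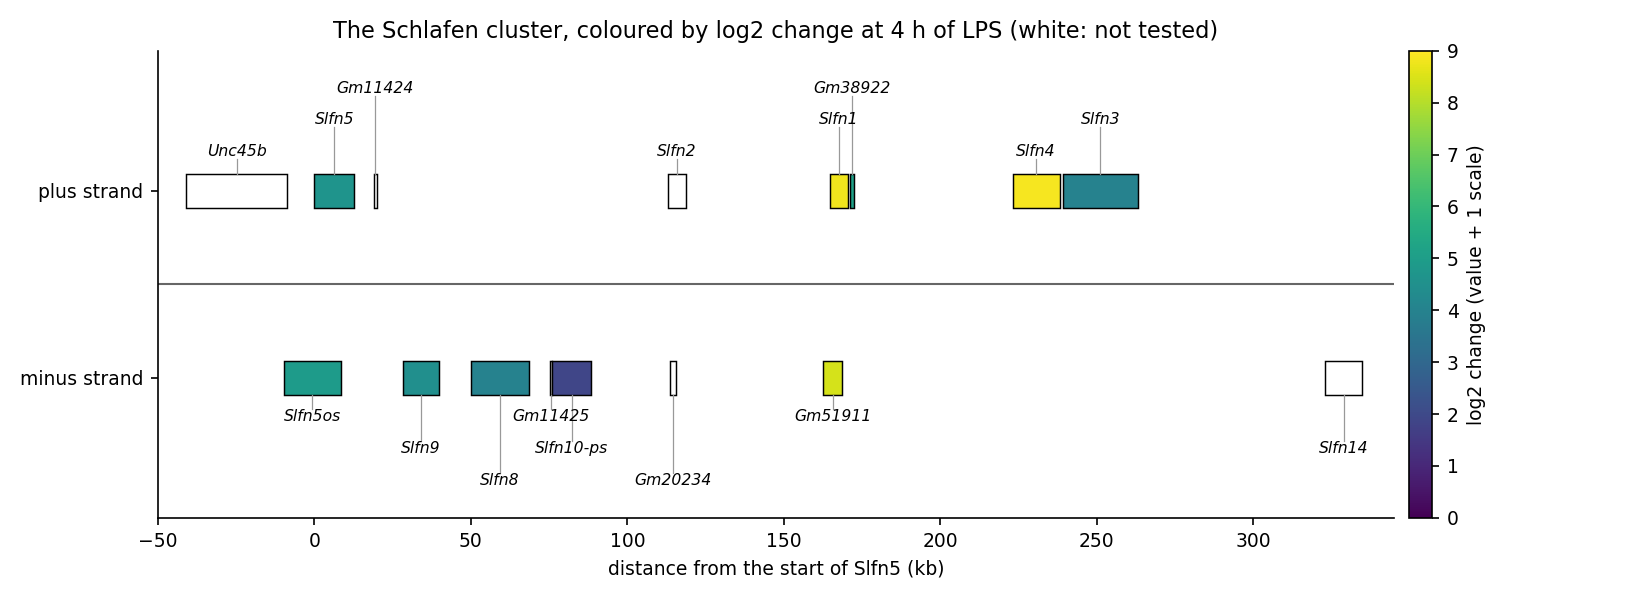
Position of the Schlafen members and of the other named rows, as distance in kb from the start of Slfn5 (x axis) and by strand (y axis), coloured by the log2 change at 4 h of LPS. The changes of the tested members ran from 3.94 (Slfn3) to 8.88 (Slfn4), and that of Slfn10-ps was 1.87.

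The sequence just upstream of the annotated starts was compared first, since all tested members rose under LPS. The 250 bases before the start (RefSeq, GRCm38.p6) were found for all 7 members, and both strands were searched for an ISRE core (GAAA and again GAAA, with 2 bases of any kind between), a STAT6-type site (TTC and GAA with 4 bases between) and a kB-type site (GGG and TTCC with 3 bases between). No pattern contains another. Only exact matches of the fixed letters were counted, so a window without a match may still hold a near one. The ISRE core was found in 3 of the 7 members, the long Slfn5, Slfn8 and Slfn9, and in 2.98% of the 32851 windows of the same length in the reference table. The STAT6-type and kB-type patterns were in none of the 7 and in 5.85% and 4.65% of all windows. The 3 windows with a match are given first, with the ISRE core in capitals, followed by those of Slfn1 and Slfn4, the members with the largest changes under LPS, which held no match. All are written in the direction of the gene and end at the last base before its start.
Slfn8: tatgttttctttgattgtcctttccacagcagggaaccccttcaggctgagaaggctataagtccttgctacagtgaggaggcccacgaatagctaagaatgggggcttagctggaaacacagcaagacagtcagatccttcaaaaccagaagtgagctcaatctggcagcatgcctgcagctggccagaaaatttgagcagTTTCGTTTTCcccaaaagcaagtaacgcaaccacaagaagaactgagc
Slfn9: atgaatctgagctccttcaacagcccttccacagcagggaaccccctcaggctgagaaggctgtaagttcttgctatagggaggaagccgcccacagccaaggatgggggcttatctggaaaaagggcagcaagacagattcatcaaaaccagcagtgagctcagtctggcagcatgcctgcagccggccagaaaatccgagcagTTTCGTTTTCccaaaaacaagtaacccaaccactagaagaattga
Slfn5: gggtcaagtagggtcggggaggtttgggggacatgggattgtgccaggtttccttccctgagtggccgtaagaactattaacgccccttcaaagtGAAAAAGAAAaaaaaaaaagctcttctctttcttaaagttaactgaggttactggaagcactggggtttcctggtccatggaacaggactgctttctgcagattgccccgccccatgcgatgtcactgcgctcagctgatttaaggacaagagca
Slfn4: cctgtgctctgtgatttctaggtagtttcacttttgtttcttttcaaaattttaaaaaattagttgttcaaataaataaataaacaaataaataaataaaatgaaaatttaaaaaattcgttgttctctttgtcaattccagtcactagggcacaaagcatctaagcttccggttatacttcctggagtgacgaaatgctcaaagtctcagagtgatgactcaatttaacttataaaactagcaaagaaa
Slfn1: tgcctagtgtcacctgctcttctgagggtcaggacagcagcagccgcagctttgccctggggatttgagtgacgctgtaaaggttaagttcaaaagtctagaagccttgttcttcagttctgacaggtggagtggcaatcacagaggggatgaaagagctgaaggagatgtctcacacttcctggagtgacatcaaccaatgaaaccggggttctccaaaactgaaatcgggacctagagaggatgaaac
These windows lie at chr11:83020811-83021060, minus strand (Slfn8), chr11:82991831-82992080, minus strand (Slfn9), chr11:82951852-82952101, plus strand (Slfn5), chr11:83174936-83175185, plus strand (Slfn4) and chr11:83116570-83116819, plus strand (Slfn1).

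The ISRE core of Slfn8 began 48 bases and that of Slfn9 45 bases before the start, both on the reverse strand and with the same letters, and that of Slfn5 lay on the forward strand 155 bases before the start. The Slfn8 and Slfn9 windows were alike along their whole length, with 206 identical positions of 242 aligned (85.1%). The other 20 pairs of member windows had 115 to 138 identical positions. A match of letters is a description of these windows and not a measurement of binding.

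Likeness also bears on counting, because reads with several hits were removed by the authors. Of the 76-base windows of the GENCODE transcripts of each member, as long as the reads, 6.78% for Slfn8 and 5.79% for Slfn9 also occurred in another family transcript, mainly Slfn10-ps and each other. The share was 1.64% for Slfn2, 1.68% for Slfn4 and 1.23% for Slfn3, and no such window was found for Slfn1 or Slfn5. Counted over the transcripts of any other gene, the share was 8.11% for Slfn5, mainly with Slfn5os, which overlaps it, 6.57% for Slfn3, mainly with Gm11427, and 2.95% for Slfn4, and it was the same as above for the others. The introns were not compared.

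In 3 pairs of rows the genes overlap on opposite strands, and the sources used here do not say if strand was taken into account. The non-coding Slfn5os covers 67.3% of the span of Slfn5, and its value was 0.4 to 0.857 times that of Slfn5 in the 27 samples, with a median of 0.722. The non-coding Gm51911 covers 64.2% of the span of Slfn1, and in the 6 samples where Slfn1 reached 10 its value was 0.64 to 0.746 times that of Slfn1. In both pairs the values moved together, and in the pair of Slfn2 and Gm20234 both rows were at 0. Without strand the reads of such partners cannot be told apart, and the values of Slfn5 and Slfn1 are uncertain to that extent.

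**Figure D2:**
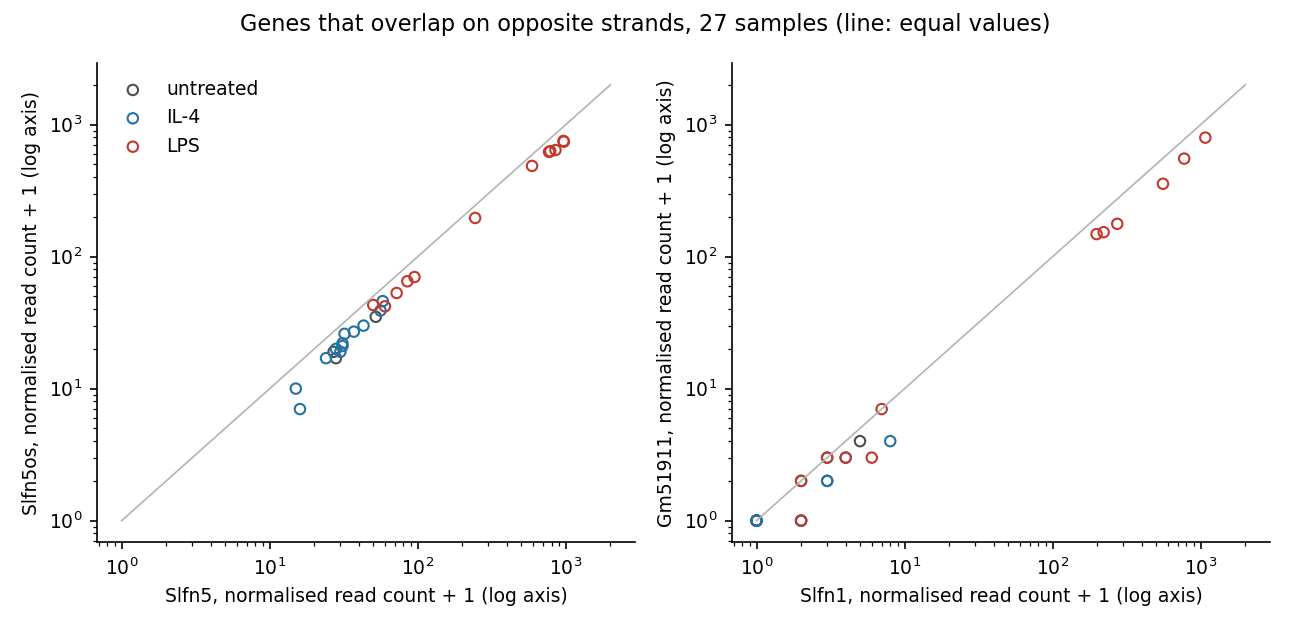
Normalised read count plus 1 in all 27 samples for Slfn5 against Slfn5os and for Slfn1 against Gm51911, on log axes, with the line of equal values. Points lie along a line just below equality, with median ratios of 0.722 and 0.702.

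Macrophage identity was checked from marker lists. All 8 macrophage markers were detected, with a summed level of 9601 to 10660 normalised read counts in untreated, 9816 to 17928 in LPS and 10577 to 13760 in IL-4 samples. Adgre1 had the highest level, and the markers did not move together. At 2 h of LPS Cd14 (3.13), Fcgr1 (3.36) and Adgre1 (0.62) were higher on the log2 scale, Csf1r (-2.11) and Lyz2 (-1.20) were lower, and Itgam, Cd68 and Mertk did not pass. Defining markers of T cells (Cd3e, Cd3g, Cd3d), B cells (Cd79b), neutrophils (Ly6g, Elane) and erythroid cells (Hbb-bs, Hba-a1, Gata1) did not exceed 3 in any sample. The summed level of 6 neutrophil markers was 5 to 11 in untreated, 8 to 88 in LPS and 5 to 20 in IL-4 samples, and that of 5 dendritic cell markers was 11 to 20, 20 to 104 and 13 to 31, none of them at 0 throughout. The 5 T cell genes found in the table summed to 183 to 251, 4 to 152 and 48 to 245, nearly all of it Cd28 in untreated cells, the 5 B cell markers to 3 to 7, 2 to 8 and 1 to 7, and the 5 erythroid markers to 73 to 94, 20 to 93 and 107 to 377, nearly all of it Alas2. The part of these shifts in the results below was not tested, and in such bulk samples fewer cells of a type and less RNA per cell cannot be told apart.

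The scaled library sums were 2469768 to 2790981 in untreated and IL-4 samples and 3571492 to 4058199 in LPS samples, and since the values were scaled by the authors the depth of each library is not given by them. Replicate 1 stood apart from replicates 2 and 3. Among the Schlafen genes, Slfn5 was highest in replicate 1 in 9 of 9 groups and Slfn8 in 7 of 9, whereas Slfn9 was lowest in replicate 1 in 8 of 9 and Slfn3 in 7 of 9.

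In untreated macrophages Slfn8 had the highest level per kb of the family. Per kb of exonic length it stood at 44 normalised read counts (42.6 to 45.9 over the 3 replicates), followed by Slfn3 at 16.7 (10.5 to 23.7), Slfn5 at 5.79 (4.34 to 8.52) and Slfn9 at 5.1 (3.11 to 6.48). Slfn5 and Slfn9 overlapped in that order. Slfn1 at 0.704 (0 to 2.11) and Slfn4 at 0.589 (0.505 to 0.757) came last and also overlapped. Chromatin-associated RNA contains introns, and whether intron reads were counted was not stated, so the same levels were set per kb of the whole gene span, where Slfn3 fell from the second to the fourth place, behind Slfn5 and Slfn9.

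Slfn2, whose loss in mice impairs T cell quiescence, was listed at 0 in all 27 samples. It was not tested, and whether 0 is its level or comes from the counting cannot be told from the table. Of 21901 protein-coding rows, 4516 were listed at 0 in every sample, and the non-coding Gm20234, inside the span of Slfn2, was also at 0 throughout.

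The first question was how LPS changed the family. All 6 tested members rose, and on the log2(value + 1) scale the largest step of each came between 1 and 2 h. In normalised read counts Slfn1 and Slfn4 gained more from 2 to 4 h. The number passing an adjusted p of 0.05 in limma was 3 of 6 at 0.5 h and 6 of 6 at 1, 2 and 4 h, in each case with higher values, against 19.6%, 24.8%, 26.9% and 25.9% of the 13901 tested genes that passed as higher at these times. The median change of the 6 members was 0.72, 1.65, 4.68 and 4.56 on the log2(value + 1) scale, against -0.24, -0.30, -0.29 and -0.26 over all tested genes. Slfn1 and Slfn4 reached 10 only in LPS samples, so they passed the filter through the groups in which they were high. Their calls as higher, here and against IL-4, and the counts and medians of the 6 rest in part on that filter. All 6 passed the F test over the LPS course, as did 87.6% of all tested genes. Replicates of LPS and untreated samples did not overlap, with LPS higher, for 1, 5, 6 and 6 members at the successive times, a pattern shown by 23.1%, 27.3%, 28.4% and 27.8% of the tested genes.

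**Figure D3:**
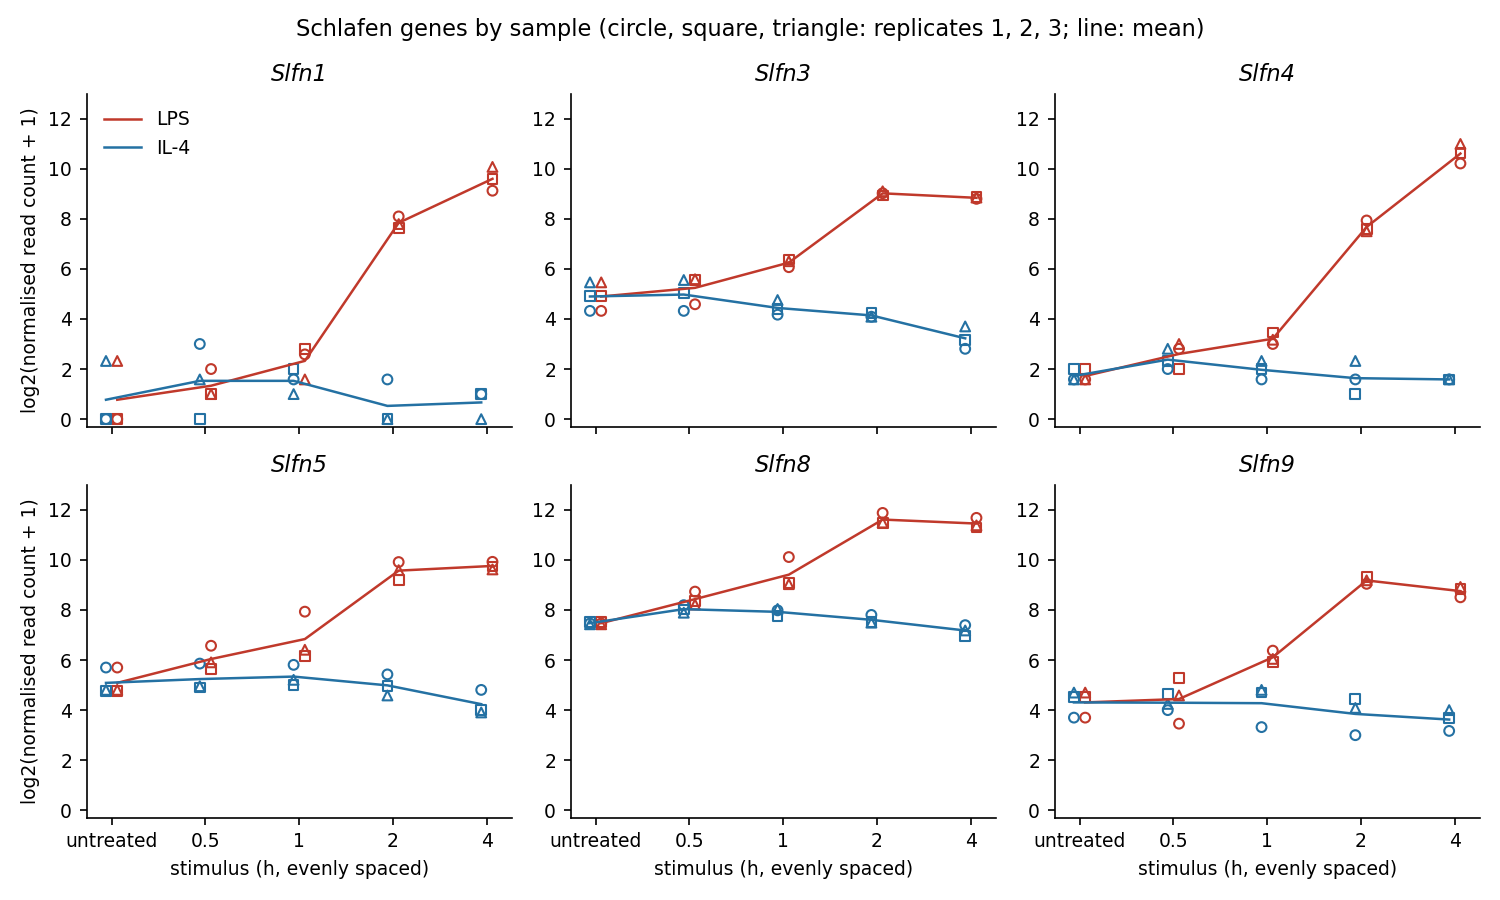
Level of the 6 tested Schlafen genes in every sample as log2(normalised read count + 1) (y axis) by time after the stimulus (x axis), with LPS in red, IL-4 in blue, a symbol per replicate and a line through the means. All LPS samples at 2 and 4 h lie above all untreated and IL-4 samples of the same gene.

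Slfn1, a short member that restrained thymocyte growth when it was first described, was close to absent before stimulation. Its normalised read counts in replicates 1, 2 and 3 were 0, 0 and 4 in untreated cells, 3, 1 and 1 after 0.5 h, 5, 6 and 2 after 1 h, 272, 197 and 220 after 2 h, and 555, 772 and 1073 after 4 h of LPS. The groups overlapped up to 1 h, and every later sample lay far above every untreated one. The change was 7.06 ± 0.54 (SE, n = 3 per group) at 2 h (adjusted p = 1.38e-08) and 8.82 ± 0.54 at 4 h (adjusted p = 1.01e-09). With such low untreated values the size rests on the number added before taking logs, and adding 8 gave 4.69 and 6.41. The 0.5 h change (0.56 ± 0.54, adjusted p = 0.4) passed only without replicate 3 (1.5, adjusted p = 0.0179). The call at 1 h (1.55 ± 0.54, adjusted p = 0.0195) was lost when 8 was added (0.41, adjusted p = 0.143), at equal library totals (adjusted p = 0.0542), with no filter (adjusted p = 0.0733), and without replicate 1 (adjusted p = 0.129) or 2 (adjusted p = 0.314).

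Slfn4, an intermediate member known from myeloid cells, showed the largest change of the family at 4 h. It stood at 2, 3 and 2 in untreated cells, 6, 3 and 7 after 0.5 h, 7, 10 and 8 after 1 h, 243, 191 and 180 after 2 h, and 1180, 1569 and 2026 after 4 h. From 1 h on no LPS sample overlapped the untreated ones, and the 4 h samples all lay above the 2 h samples. The change was 1.49 ± 0.28 at 1 h (adjusted p = 0.000259), 5.95 ± 0.28 at 2 h (adjusted p = 5.29e-11) and 8.88 ± 0.28 at 4 h (adjusted p = 7.11e-13), and with 8 added it was 0.66, 4.35 and 7.24. At 0.5 h it passed (0.88 ± 0.28, adjusted p = 0.0145), but not when 8 was added (adjusted p = 0.137), at equal library totals (adjusted p = 0.138), or without replicate 1 (adjusted p = 0.0608) or 3 (adjusted p = 0.215).

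Slfn3, the neighbour of Slfn4 on the same strand, rose up to 2 h and no further. Its values were 19, 29 and 43 in untreated cells, 23, 46 and 47 after 0.5 h, 66, 82 and 78 after 1 h, 517, 487 and 546 after 2 h, and 443, 465 and 459 after 4 h. The 0.5 h samples overlapped the untreated ones, and all later samples were higher. The change was 0.35 ± 0.27 at 0.5 h (adjusted p = 0.296), 1.35 ± 0.27 at 1 h (adjusted p = 0.000431), 4.12 ± 0.27 at 2 h (adjusted p = 2.33e-09) and 3.94 ± 0.27 at 4 h (adjusted p = 3.8e-09).

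Slfn8, a long member, had the highest level per kb at every time. It stood at 175, 184 and 171 in untreated cells, 424, 325 and 296 after 0.5 h, 1105, 542 and 521 after 1 h, 3750, 2824 and 2868 after 2 h, and 3270, 2509 and 2656 after 4 h of LPS. No LPS sample at any time overlapped the untreated samples, and replicate 1 was the highest in each LPS group. The change was 0.96 ± 0.23 at 0.5 h (adjusted p = 0.00271), 1.94 ± 0.23 at 1 h (adjusted p = 3.4e-06), 4.14 ± 0.23 at 2 h (adjusted p = 4.38e-10) and 3.98 ± 0.23 at 4 h (adjusted p = 6.72e-10). At equal library totals the 0.5 h change was 0.45 (adjusted p = 0.0903).

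Slfn5, the long member at the left end of the cluster, followed a similar course. Its values were 51, 26 and 27 in untreated cells, 94, 49 and 59 after 0.5 h, 243, 71 and 84 after 1 h, 962, 590 and 769 after 2 h, and 968, 850 and 784 after 4 h. The 0.5 h samples overlapped the untreated ones through replicate 1 of the untreated group, and the later samples did not. The change was 1.75 ± 0.39 at 1 h (adjusted p = 0.00102), 4.48 ± 0.39 at 2 h (adjusted p = 6e-08) and 4.67 ± 0.39 at 4 h (adjusted p = 3.73e-08). The call at 0.5 h (0.95 ± 0.39, adjusted p = 0.0483) was close to the threshold and was lost under 7 of the 11 alternatives, with adjusted p-values up to 0.316 (at equal library totals), among them leaving out replicate 2 (0.134) or 3 (0.238).

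Slfn9, the long member whose upstream window resembles that of Slfn8, passed from 1 h onwards. It stood at 12, 22 and 25 in untreated cells, 10, 38 and 23 after 0.5 h, 82, 59 and 65 after 1 h, 526, 633 and 580 after 2 h, and 362, 455 and 482 after 4 h. The untreated and 0.5 h samples overlapped, and all later ones were higher. The change was 0.14 ± 0.35 at 0.5 h (adjusted p = 0.768), 1.80 ± 0.35 at 1 h (adjusted p = 0.000386), 4.87 ± 0.35 at 2 h (adjusted p = 7.97e-09) and 4.44 ± 0.35 at 4 h (adjusted p = 2.34e-08).

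The steps between time points separated the members. From 0.5 to 1 h, Slfn3 (1.01), Slfn8 (0.98) and Slfn9 (1.67) rose, 3 of 6, where 25.1% of the tested genes passed as higher. Slfn5 (0.80) did not pass (adjusted p = 0.0998) but did with the replicate block (adjusted p = 0.00332). More members passed in this step when replicate 1 was left out, and Slfn3 did not pass without replicate 2 (adjusted p = 0.0572). From 1 to 2 h all 6 rose, by 2.20 (Slfn8) to 5.51 (Slfn1), where 21.5% of the tested genes passed as higher. From 2 to 4 h 2 of 6 rose further, where 11.4% of the tested genes did. These were Slfn4 (2.93 ± 0.28, adjusted p = 2.27e-06) and Slfn1 (1.76 ± 0.54, adjusted p = 0.0267), while Slfn3 (-0.18), Slfn5 (0.19), Slfn8 (-0.16) and Slfn9 (-0.43) did not pass, with adjusted p-values of 0.442 to 0.79. Slfn1 and Slfn4 passed the filter on low values through their LPS samples only. Their calls from 1 to 2 h and from 2 to 4 h, and the counts of both steps, rest in part on that filter. The late step of Slfn1 did not pass without replicate 2 (adjusted p = 0.212) or 3 (adjusted p = 0.0573), with replicates 2 and 3 averaged (adjusted p = 0.0788), or with no filter (adjusted p = 0.103), and 1 of 6 members then passed. Slfn1, Slfn4 and Slfn5 thus had their highest mean at 4 h and Slfn3, Slfn8 and Slfn9 at 2 h. The 4 h samples of Slfn3 and Slfn9, 2 of 6 members, all lay below their 2 h samples, a pattern shown by 16.7% of the tested genes, and those of Slfn8 were lower within each replicate number, although none of these steps passed with or without the replicate block.

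**Figure D4:**
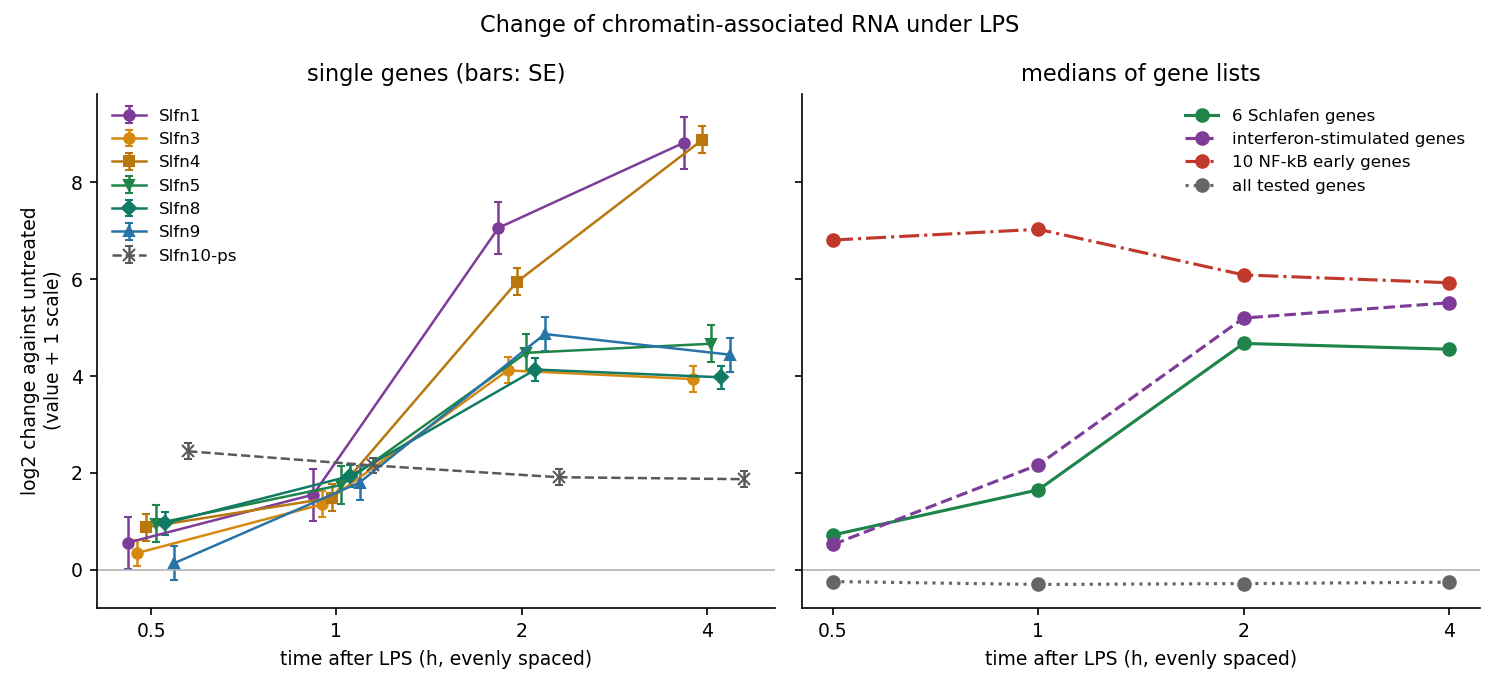
Left, log2 change against untreated (value + 1 scale, y axis) by time after LPS (x axis) for the 6 tested Schlafen genes and Slfn10-ps, with bars for the SE. Right, medians of gene lists at the same times. Slfn1 and Slfn4 reach 8.82 and 8.88 at 4 h, the other members level off between 3.94 and 4.87, and Slfn10-ps is highest at 0.5 h (2.45).

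The order of levels at 4 h of LPS differed from that of untreated cells. Per kb of exonic length Slfn8 was still first at 701 normalised read counts (626 to 815), followed by Slfn1 at 423 (293 to 567) and Slfn4 at 402 (298 to 511), which overlapped each other, then Slfn3 at 251 (244 to 256), Slfn5 at 145 (131 to 162) and Slfn9 at 112 (93.9 to 125). Neither Slfn1 nor Slfn4 overlapped Slfn3, and Slfn5 did not overlap Slfn9. Per kb of gene span Slfn8 stood at 151 (135 to 175) and overlapped Slfn1 at 137 (94.9 to 183), and Slfn3 came last of the 6 at 19.1.

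Slfn10-ps, the related row next to Slfn8, had another course. It stood at 27, 24 and 28 in untreated cells, 136, 181 and 131 after 0.5 h, 133, 114 and 115 after 1 h, 93, 98 and 115 after 2 h, and 113, 98 and 87 after 4 h of LPS. All LPS samples lay above the untreated ones, and the highest group mean was at 0.5 h. The change was 2.45 ± 0.16 at 0.5 h (adjusted p = 8.54e-09) and 1.87 ± 0.16 at 4 h (adjusted p = 7.33e-08), and no later step passed (adjusted p = 0.151, 0.258 and 0.901). The nearby Gm38922, just beyond the end of Slfn1, was listed at 0 in all untreated, IL-4 and early LPS samples, and stood at 8, 4 and 7 after 2 h and at 28, 34 and 41 after 4 h of LPS. Of the other rows named Slfn or lying in or beside the cluster, Slfn14, Gm11425 and Slfnl1 (on chromosome 4) did not exceed 2 in any sample, Unc45b did not exceed 3, and Gm11424 was at 0 throughout.

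Genes of the interferon pathway were measured beside the family. Ifnb1, which encodes interferon beta, was listed at 0 in untreated samples, at 10, 2 and 3 after 0.5 h of LPS, at 17, 16 and 5 after 1 h, at 2, 1 and 0 after 2 h, and at 0 in all samples taken after 4 h. It passed as higher at 0.5 h (2.35, adjusted p = 0.00192) and 1 h (3.61, adjusted p = 3.35e-05), and its values were highest at 1 h. All 6 tested Schlafen genes passed as higher at 1 h, although the call of Slfn1 was lost under several alternatives. The largest log2 step of these genes came from 1 to 2 h, and a link with Ifnb1 was not tested. Of 13 signalling genes, 5 were higher and 2 lower at 0.5 h of LPS, 12 were higher at 1 h, 11 higher and 1 lower at 2 h, and 11 higher at 4 h. Of the 13901 tested genes 2718, 3448, 3740 and 3595 were higher at these times, and 4775, 5415, 5417 and 5233 were lower. Ifnb1, which is among the 13, reached 10 only in LPS samples, so its calls and these counts rest in part on the filter.

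Of the genes for ISGF3, Stat2 changed by -0.88, 0.59, 3.63 and 3.98 at the 4 times, and Irf9 by 0.33 (adjusted p = 0.0895), 0.73, 1.86 and 2.15, and the values given without a p passed. Irf7, which amplifies interferon production, changed by 0.22 (adjusted p = 0.475), 0.88, 4.81 and 5.84, and Irf1 rose at all 4 times, by 3.79, 2.62, 4.48 and 3.0. The inhibitors Usp18 and Socs1 stood at 5.79 and 6.44 above untreated at 2 h, with Usp18 lower at 0.5 h (-1.14). The receptor genes Ifnar1 and Ifnar2 were 1.34 and 0.95 higher at 2 h, the kinase genes Jak1 and Tyk2 1.79 and 1.83 higher, and Irf3, a constitutive factor, was 1.42 higher at 0.5 h (adjusted p = 1.54e-05) and lower at 2 h (-0.46, adjusted p = 0.042), the latter call being lost without replicate 1 (adjusted p = 0.272) or 3 (adjusted p = 0.227).

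The median change of 24 tested interferon-stimulated genes was 0.52, 2.17, 5.20 and 5.52 at the successive LPS times, with 11, 21, 24 and 24 of them higher and 2, 0, 0 and 0 lower. Of the 13901 tested genes 2718, 3448, 3740 and 3595 were higher at these times, and 4775, 5415, 5417 and 5233 were lower. Ifit1 rose by 1.98, 4.74, 7.42 and 7.03 and Ifit2 changed by 0.80 (adjusted p = 0.0937), 2.44, 6.28 and 6.73, all others passing. The median of 10 early NF-kB targets was already 6.81 at 0.5 h, all 10 of them passing as higher then and later, and had come to 5.93 by 4 h. Without Cxcl1, listed at 0 in untreated samples, these medians were 6.64 and 6.18. Of that list, Nfkbia rose by 5.10, Tnf by 8.12 and Tnfaip3 by 7.78 at 0.5 h. The medians of the Schlafen genes (0.72, 1.65, 4.68 and 4.56) lay between those of all genes and of the NF-kB list at each time. They were above those of the interferon-stimulated list at 0.5 h and below them at the later times.

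Across the 9 group means, the 6 tested Schlafen genes had pairwise Pearson correlations of 0.931 (Slfn3 with Slfn4) to 0.995 (Slfn5 with Slfn8). These groups share their libraries and the same LPS rise, so the values describe these means and carry no test. The genes outside the family most like Slfn1 were Gm51911 (0.999), Tmem86b (0.997) and Ifi214 (0.997), and those most like Slfn4 were Slamf1 (0.995), Gm51911 (0.993) and Gbp6 (0.993). Gm51911 overlaps Slfn1 on the opposite strand, and without strand the reads of this pair cannot be told apart. Slfn3 was most like Ifit2 (0.997), Dgkh (0.993) and Oasl2 (0.990), Slfn5 most like Oasl2 (0.997), Ifit2 (0.996) and Gm52117 (0.994), and Slfn8 most like Oasl2 (0.996), Pnp (0.995) and Ext1 (0.994). For Slfn9 they were Pcgf5 (0.997), Mlkl (0.996) and Tdrd7 (0.995).

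The second question was what IL-4 did to the same genes. No member changed by as much as 2 on the log2 scale at any time. At 0.5 h and at 1 h 1 of 6 members passed, Slfn8 in both cases and higher, where 8.15% and 11.1% of the tested genes passed as higher. At 2 h none passed in limma, where 27.6% of the tested genes did in either direction, and 1 had an unadjusted p under 0.05, Slfn3. At 4 h 1 of 6, Slfn3, was lower, where 12.5% of the tested genes were. Over the IL-4 course 2 of 6 passed the F test, Slfn8 (adjusted p = 0.00055) and Slfn3 (adjusted p = 0.00568), against 40.3% of all tested genes. The median change of the 6 was 0.36, 0.25, -0.17 and -0.49, against -0.02, -0.01, -0.0015 and 0.02 over all tested genes.

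Slfn8 rose early under IL-4, and its later values were lower. Its values were 291, 258 and 236 after 0.5 h, 252, 214 and 262 after 1 h, 222, 183 and 179 after 2 h, and 167, 124 and 144 after 4 h, against 175, 184 and 171 in untreated cells. The 0.5 and 1 h samples lay above all untreated ones, the 2 h samples overlapped them, and the 4 h samples lay below. The change was 0.56 ± 0.13 at 0.5 h (adjusted p = 0.00682) and 0.45 ± 0.13 at 1 h (adjusted p = 0.0194). The 0.5 h call was lost without replicate 2 (adjusted p = 0.0689) or 3 (adjusted p = 0.0945) and with replicates 2 and 3 averaged (adjusted p = 0.0586), and the 1 h call in these 3 settings (adjusted p = 0.0599, 0.269 and 0.103), at equal library totals (0.0764) and with no filter (0.0501). At 4 h the change was -0.29 ± 0.13 (adjusted p = 0.108), and with the replicate block or without replicate 1 it passed (adjusted p = 0.0352 and 0.0219).

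Slfn3 was lower than in untreated cells by the end of the IL-4 course. It stood at 19, 32 and 46 after 0.5 h, 17, 20 and 26 after 1 h, 16, 18 and 16 after 2 h, and 6, 8 and 12 after 4 h, against 19, 29 and 43 in untreated cells. The 2 and 4 h samples lay below all untreated ones. The change was -0.76 ± 0.34 at 2 h (adjusted p = 0.128, and 0.0167 with the replicate block, under which 19.0% of the tested genes passed as lower) and -1.67 ± 0.34 at 4 h (adjusted p = 0.00263). Without replicate 2 the 4 h change was -1.64 (adjusted p = 0.0987) and the course did not pass (adjusted p = 0.212), nor did the course with replicates 2 and 3 averaged (adjusted p = 0.0956).

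The other members gave smaller or less certain differences. From 0.5 to 2 h of IL-4 Slfn5 ranged from 23 to 57 and Slfn9 from 7 to 27 over the 9 samples, overlapping the untreated samples at each time. At 4 h of IL-4 Slfn5 stood at 27, 15 and 14, which overlapped the untreated 51, 26 and 27 through replicate 1, and Slfn9 at 8, 12 and 15, which overlapped the untreated 12, 22 and 25. The changes were -0.85 ± 0.36 (adjusted p = 0.106) for Slfn5 and -0.68 ± 0.45 (adjusted p = 0.313) for Slfn9. With the replicate block both passed (adjusted p = 0.000615 and 0.0428), so that 4 of 6 members passed as lower at 4 h, where 18.1% of the tested genes did under the block, and without replicate 1 the adjusted p-values were 0.011 and 0.0387. The course of Slfn5 also passed with the block (adjusted p = 0.000252, against 0.123), as did 53.3% of the tested genes.

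Slfn1 and Slfn4 stayed near 0 under IL-4, between 0 and 7 and between 1 and 6 in all 12 samples. Their changes lay between -0.25 and 0.75 and between -0.14 and 0.65, and none passed. No step between IL-4 times passed for any member in limma, where 7.82%, 9.40% and 5.48% of the tested genes passed in either direction, with 0, 1 and 2 members at an unadjusted p under 0.05. With the replicate block Slfn8 passed from 1 to 2 h (-0.32, adjusted p = 0.0446) and Slfn3, Slfn5 and Slfn8 from 2 to 4 h (-0.92, -0.75 and -0.43, adjusted p = 0.0161, 0.0056 and 0.0129), where 9.47% and 6.58% of the tested genes passed as lower under the block.

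**Figure D5:**
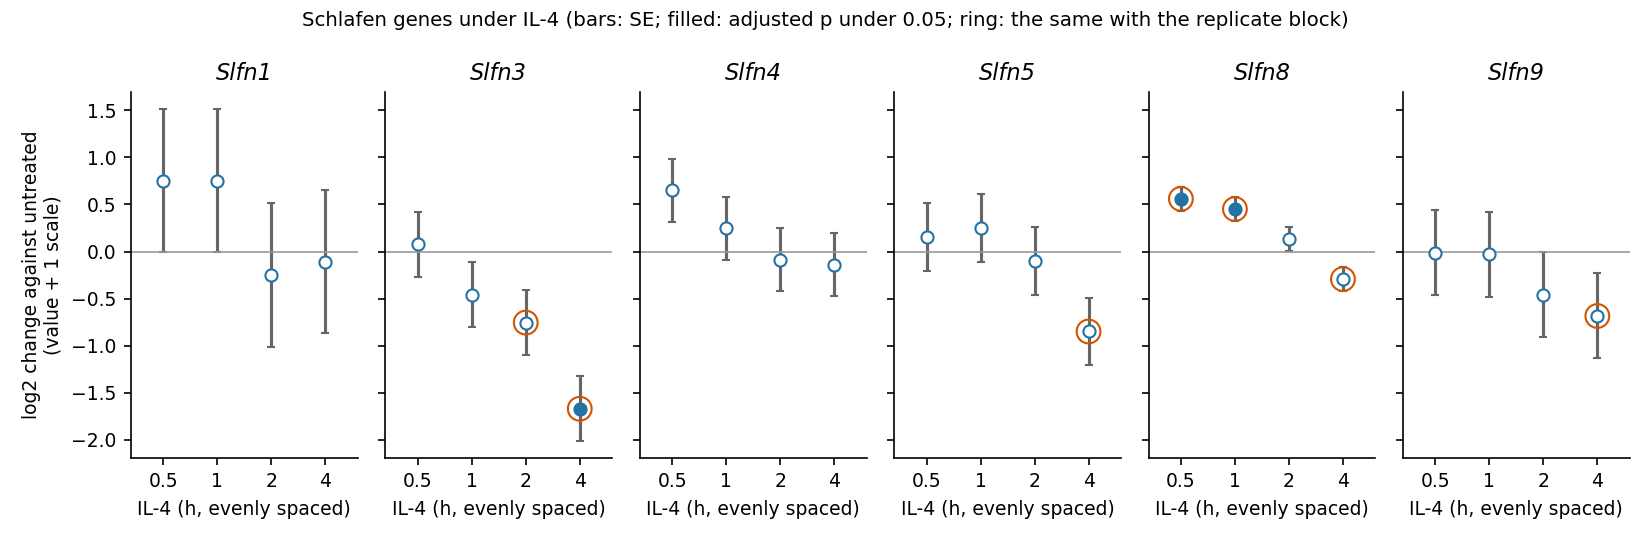
Log2 change against untreated (value + 1 scale, y axis) of the 6 tested Schlafen genes by hours of IL-4 (x axis), with bars for the SE, filled points for an adjusted p under 0.05 and a ring where this held with the replicate block. Slfn8 is above 0 at 0.5 and 1 h (0.56 and 0.45), and Slfn3 reaches -1.67 at 4 h.

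Slfn10-ps also fell under IL-4, to 10, 13 and 10 after 2 h and 10, 4 and 11 after 4 h, all below the untreated 27, 24 and 28. The change was -1.19 ± 0.30 at 2 h (adjusted p = 0.0078) and -1.65 ± 0.30 at 4 h (adjusted p = 0.00092), and the 2 h call was lost without replicate 1 (adjusted p = 0.051) or 3 (adjusted p = 0.13). Of the 24 interferon-stimulated genes 13 were lower and none higher at 4 h of IL-4, with a median of -0.75. Of the 13901 tested genes 1742 were lower and 1856 higher at that time. Ifit1 was lower by -1.67 and Ifit2 by -2.01, and of the signalling genes Irf7, Irf1, Socs1 and Stat2 were higher at 4 h (1.82, 0.74, 6.21 and 0.72) and Ifnar2 was lower (-0.53).

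LPS and IL-4 were then compared directly at each time. At 0.5 h none of the 6 members differed in limma, where 53.8% of the tested genes did, and none had an unadjusted p under 0.05. With the replicate block 2 passed as higher under LPS, Slfn5 (0.80, adjusted p = 0.000687) and Slfn8 (0.40, adjusted p = 0.015), where 20.7% of the tested genes passed as higher under the block. At 1 h 5 of 6 were higher under LPS, by 1.24 (Slfn4) to 1.83 (Slfn9), where 24.0% of the tested genes passed as higher under LPS, and Slfn1 did not pass (0.80, adjusted p = 0.285). At 2 and 4 h all 6 were higher under LPS, where 26.4% and 26.1% of the tested genes passed as higher, by 4.00 (Slfn8) to 7.31 (Slfn1) and by 4.27 (Slfn8) to 9.02 (Slfn4). The same 3 untreated samples served both stimuli elsewhere, and here they entered the fit through the shared estimate of the spread and not through the differences.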

How the data were processed

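Chromatin-associated RNA of 27 BMDM samples was sequenced by the authors (random-primed Smart-seq2, 76-bp single-end reads). Per the study's methods and the submitters' processing notes, reads were aligned to mm10 with TopHat2 2.1.1 and RefSeq transcripts, multi-mapping and blacklisted reads were removed (bedtools 2.29.2), and reads were counted per gene over GRCm38.p6 in R 3.6.2. Strand and the treatment of introns were not stated. The deposited values are read counts scaled by the authors on invariant genes and given as whole numbers. The deposited values were handled as a score (normalised read count) that the authors had scaled, and no test for raw counts was used. Depth per library is not given by them, so no counting interval was set.

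The 7 members were selected by symbol. Genes with at least 10 in at least 3 of 27 samples were tested (13901, holding 99.6% of the total) on the log2(value + 1) scale in limma (version 3.58.1 under R 4.3.3, trend, Benjamini-Hochberg over all tested genes, threshold 0.05). This scale understates changes of low genes. Each course was fitted with its 15 samples, and LPS against IL-4 with all 27. The study's impulse model was not run. The named genes were all members, the other Slfn rows, the Gm rows inside the cluster and its flanking genes, 3 genes most like each tested member, the signalling list and the first 3 genes of the interferon-stimulated and NF-kB lists (Ifit3 did not pass the filter). Some genes of the lists are not reported here. Members, lists and tests were chosen with earlier results of these data known. The fits were run on simulated data with changes in a single group and no replicate effect. That run therefore does not cover the broad LPS changes or the replicate differences of these data. Upstream sequences came from RefSeq tables (GRCm38.p6) and transcripts from GENCODE, and were aligned with Biopython 1.88.

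The labels do not say what a replicate number marks. Deviations from group means over 6827 genes correlated at 0.163 or above in every pair of samples with the same number (36 pairs for each number). For different numbers the median was -0.438, with a range of -0.75 to 0.615. Centring on group means ties these sets of pairs, and replicate 1 standing apart alone would also make same-number values positive. The values thus set replicate 1 apart and do not show that numbers 2 and 3 each pair samples. A fit with the replicate number as a block was compared. Other alternatives were the pseudocount, filter, scaling, trend, averaging replicates 2 and 3, and leaving out each replicate.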

Additional observations from a re-analysis of the deposited data

How the results depend on the processing

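No Schlafen change that passed here or under any of the 11 alternatives had the opposite sign in the other. Leaving out each replicate number in turn, 2 Schlafen genes passed at LPS 0.5 h, 2 to 5 from LPS 0.5 to 1 h, 1 to 2 from LPS 2 to 4 h, 0 to 1 at each of IL-4 0.5, 1 and 2 h, 0 to 4 at IL-4 4 h, 1 to 3 over the IL-4 course, 0 to 2 from IL-4 2 to 4 h and 0 to 2 between LPS and IL-4 at 0.5 h, with the highest of each range without replicate 1. At LPS 1 h 5 to 6 passed, with 6 without replicate 3. Of the 3 Schlafen genes higher at LPS 0.5 h, 1 passed with a pseudocount of 8 and 0 at equal totals. From 2 to 4 h of LPS, 1 Schlafen gene passed with no filter and 1 with replicates 2 and 3 averaged. Under IL-4, that averaging left 0 at 0.5 h, 0 at 1 h and 1 over the course, and at 1 h 0 passed with no filter and 0 at equal totals. From 2 to 4 h of IL-4, 1 passed among genes with a mean of at least 50. At 0.5 h, 2 differed between LPS and IL-4 after median-of-ratios rescaling. The shares of all tested genes under these settings are not reported here. The counts therefore show how the calls moved, and not how the members compare with other genes.

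With the replicate block, 1 Schlafen gene passed at IL-4 2 h, 4 at IL-4 4 h, 1 from IL-4 1 to 2 h, 3 from IL-4 2 to 4 h and 2 between LPS and IL-4 at 0.5 h, where 19.0%, 18.1%, 9.47%, 6.58% and 20.7% of the tested genes passed in the members' direction under the block. The block also added Slfn5 from 0.5 to 1 h of LPS and over the IL-4 course, and changed no other call of a Schlafen gene.

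At equal totals the median change of all genes under LPS was -0.73, -0.86, -0.91 and -0.84 at the 4 times, and at 2 h the Schlafen genes were then higher by 3.47 (Slfn3) to 6.64 (Slfn1). At equal totals Ifnar2 (-0.49) and Tyk2 (-0.51) were lower at 0.5 h and Irf3 (-0.46) at 1 h of LPS, where the deposited scaling gave 0.02, 0.00 and 0.11. The causes were not tested. Depth is unknown, which limits the low values of Slfn1 and Slfn4 most.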
